A study of Mus musculus with 8 samples.

Results

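Distal intergenic acetylated regions are stretches of acetylated histone H4 that lie far from every protein-coding gene. The peaks of all 8 libraries on chromosomes 1 to 19 were merged wherever they overlapped, which gave 81378 union regions. A region was kept as distal when it lay more than 20 kb from the body of every protein-coding gene of GRCm38 and held peaks of at least 2 libraries. Of the 63103 regions with peaks of 2 or more libraries, 10747 met both conditions, or 17%. No measured change between treatments was used to choose them. However, 883 of them had peaks in the 2 libraries of 1 group and in no other. The rule that kept those regions thus drew on the same values as their tests. A further 2709 distal regions had peaks of 1 library and were not kept.

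Bone-marrow-derived macrophages of C57BL/6 mice were studied by chromatin immunoprecipitation of acetyl-H4 and sequencing. The 4 groups were macrophages given 25-hydroxycholesterol before the lipopeptide PAM3CSK4 (25HC then PAM3), macrophages stimulated with PAM3CSK4 alone (PAM3), macrophages given 25-hydroxycholesterol alone (25HC), and untreated macrophages. Mouse A and mouse B each gave 1 library to every group, so values are given in the order mouse A, mouse B. All groups shared the C57BL/6 genotype and the cell type, and the labels used here give no age, no dose and no duration of the 25HC treatment. The label for stimulation time carries no unit. It reads 18 in every library with PAM3 and 0 in every library without it, so PAM3 and that time cannot be told apart. The replicates are cultures from 2 mice, and p-values measure the spread between those mice and libraries.

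Macrophages read lipopeptides such as PAM3CSK4 through Toll-like receptor 2 and its partner receptors, and answer with NF-κB and AP-1 driven transcription of cytokines. Much of that response runs through enhancers, which often lie far from the gene they act on and carry acetylated histones when active. 25-hydroxycholesterol is an oxysterol that macrophages make from cholesterol with the enzyme Ch25h, it activates the liver X receptors and it restrains cholesterol synthesis. The gene nearest to a region is used here as an address and is not taken to be the gene it acts on.

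Sequences of DNA inside distal regions are shown to let the reader see what such regions hold at the start of a noncoding gene. They are promoter windows of long noncoding RNA genes from the RefSeq table of GRCm38.p6, each 300 bases long, with 250 bases before and 50 bases from the gene's start. Of the 32851 windows in that table, 480 lay wholly inside a distal region. The 3 below lay in regions that were called only in the libraries without PAM3, and were chosen as those of the largest falls among called regions holding a window. They are Gm34441 at chr6:55536793-55537092 on the plus strand, Gm33982 at chr10:119130697-119130996 on the plus strand and Gm34058 at chr13:58688356-58688655 on the minus strand. Capitals mark matches to TGANTCA, the AP-1 motif, or to GAGGAA, the core of the PU.1 motif, on either strand. Of these 3 windows, Gm34058 holds 3 copies of GAGGAA and the others hold no match.
Gm34441: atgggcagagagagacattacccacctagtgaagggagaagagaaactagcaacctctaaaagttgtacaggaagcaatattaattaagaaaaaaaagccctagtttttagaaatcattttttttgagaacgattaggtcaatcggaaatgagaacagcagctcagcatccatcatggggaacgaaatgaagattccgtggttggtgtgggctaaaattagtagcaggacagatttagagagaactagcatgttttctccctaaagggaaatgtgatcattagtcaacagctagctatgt
Gm33982: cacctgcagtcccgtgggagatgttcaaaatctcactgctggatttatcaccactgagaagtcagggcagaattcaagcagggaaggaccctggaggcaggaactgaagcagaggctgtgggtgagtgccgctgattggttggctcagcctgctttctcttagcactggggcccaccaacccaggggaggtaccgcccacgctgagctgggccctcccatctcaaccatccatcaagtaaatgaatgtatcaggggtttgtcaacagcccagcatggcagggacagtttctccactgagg
Gm34058: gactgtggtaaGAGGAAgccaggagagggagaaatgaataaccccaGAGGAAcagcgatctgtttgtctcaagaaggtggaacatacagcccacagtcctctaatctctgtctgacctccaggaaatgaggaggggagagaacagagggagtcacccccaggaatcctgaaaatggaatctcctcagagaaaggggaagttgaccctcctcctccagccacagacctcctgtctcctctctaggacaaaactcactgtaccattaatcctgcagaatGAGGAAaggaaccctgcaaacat
The next 3 windows lay in regions with the largest rises with PAM3 among those holding a window. They are Gm35218 at chr14:72807538-72807837 on the minus strand, Gm34643 at chr14:103012625-103012924 on the plus strand and Gm32137 at chr2:117439734-117440033 on the plus strand. In Gm35218 a GAGGAA stands directly before a TGACTCA, and in Gm34643 a TGACTCA and 2 copies of TTCCTC, the reverse complement of GAGGAA, are marked.
Gm35218: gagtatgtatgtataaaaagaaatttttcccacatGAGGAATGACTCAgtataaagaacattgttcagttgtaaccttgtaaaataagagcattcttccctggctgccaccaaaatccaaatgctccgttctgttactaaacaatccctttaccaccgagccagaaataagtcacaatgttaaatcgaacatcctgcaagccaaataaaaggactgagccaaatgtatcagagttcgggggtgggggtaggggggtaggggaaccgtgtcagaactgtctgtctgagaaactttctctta
Gm34643: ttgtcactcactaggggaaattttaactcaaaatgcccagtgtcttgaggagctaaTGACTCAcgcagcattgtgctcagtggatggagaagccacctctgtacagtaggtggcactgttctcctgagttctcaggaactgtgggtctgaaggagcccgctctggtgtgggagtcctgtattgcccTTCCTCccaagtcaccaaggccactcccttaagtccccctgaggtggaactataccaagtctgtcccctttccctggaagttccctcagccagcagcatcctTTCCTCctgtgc
Gm32137: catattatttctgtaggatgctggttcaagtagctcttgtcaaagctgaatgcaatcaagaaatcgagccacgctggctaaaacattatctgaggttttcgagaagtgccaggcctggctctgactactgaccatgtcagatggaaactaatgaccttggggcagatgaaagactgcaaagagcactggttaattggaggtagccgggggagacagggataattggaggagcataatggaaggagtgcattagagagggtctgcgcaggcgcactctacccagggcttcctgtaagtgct
A pair of named long noncoding RNAs with a start inside a distal region is shown because regions around them are described below, and was chosen after their values were seen. Morrbid, which controls the life span of myeloid cells in mice, starts at chr2:128429302-128429601 on the minus strand. Mexis, which supports transcription of the neighbouring cholesterol exporter gene Abca1 in mouse macrophages, starts at chr4:53270183-53270482 on the minus strand.
Morrbid: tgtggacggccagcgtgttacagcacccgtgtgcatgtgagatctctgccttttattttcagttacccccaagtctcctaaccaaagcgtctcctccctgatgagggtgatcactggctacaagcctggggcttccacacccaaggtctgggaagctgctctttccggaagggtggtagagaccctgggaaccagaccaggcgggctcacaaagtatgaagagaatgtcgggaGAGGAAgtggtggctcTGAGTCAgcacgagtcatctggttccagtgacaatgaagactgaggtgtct
Mexis: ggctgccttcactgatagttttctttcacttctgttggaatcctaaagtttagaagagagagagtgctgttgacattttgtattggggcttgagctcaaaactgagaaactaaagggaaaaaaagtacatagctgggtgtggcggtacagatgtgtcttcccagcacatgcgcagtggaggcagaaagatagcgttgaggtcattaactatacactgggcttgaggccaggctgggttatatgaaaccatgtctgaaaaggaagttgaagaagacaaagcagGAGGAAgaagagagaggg

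The letters TGANTCA stood in 15.2% of the 480 windows inside distal regions and in 7.81% of all windows of the table. They stood in 12 of 37 windows (32.4%) in regions that were longer with PAM3 and in 3 of 47 windows (6.38%) in regions that were shorter. GAGGAA stood in 39.6% of the windows inside distal regions, against 28.3% of all windows. TTGCNNAA, the C/EBP motif, stood in 17.3% of the windows inside distal regions and in 10.8% of all windows. NF-κB letters (GGGA and TTTCC joined by any base) were found in 4 of the 480 windows (0.833%), and IRF letters (GAAA repeated after any 2 bases) in 18 of them (3.75%), against 0.411% and 3.44% of all windows. The LXR motif, AGGTCA repeated after any 4 bases, was in none of the 480 and in 0.0152% of all windows. Both strands were searched, AP-1 and PU.1 letters stood side by side in Gm35218, and a match is a run of letters and no evidence of binding. The windows come from long noncoding and other RefSeq transcripts, so these shares describe noncoding starts and not the distal regions as a whole. The set of all windows was not limited to starts far from protein-coding genes. No background of that kind was searched, so what sets the shares apart was not tested.

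MicroRNA genes of the RefSeq gene table overlapped 7 distal regions. Mir7688 overlapped the end of the region at chr10:93430794-93433155, which is 20240 bp from Lta4h, the gene of leukotriene A4 hydrolase. Its mature forms are printed with the seed, bases 2 to 8, in capitals because this region was shorter with PAM3. Their seeds differ. The 5p form, at chr10:93433107-93433129, lay inside the region, and the 3p form, at chr10:93433142-93433162, ran past its end.
mmu-miR-7688-5p: uAGCUGGGcaugaucugaugagc
mmu-miR-7688-3p: uCUGGCUUaugccuagcuuuc
The Mir7688 region was called over 1206 and 629 bp after 25HC then PAM3, 450 and 1008 bp after PAM3, 2322 and 2258 bp after 25HC, and 2195 and 2340 bp in untreated cells. All 4 libraries with PAM3 were below all 4 without it, and the mean difference was -1.09 ± 0.19 on the log2 scale (standard error, limma adjusted p = 0.016). The call was lost without 25HC mouse A, 25HC mouse B or untreated mouse B.

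Between 48446 and 54552 peaks were listed in a library. Read depth was unknown, so no counting interval could be given. The list of PAM3 mouse A covered the least genome, 56615230 bp against 59902393 to 72384343 bp in the other 7, and was also the shortest over the distal regions. All 12 macrophage marker genes had peaks in all 8 libraries. They summed to 80145 to 115697 bp with PAM3 and 76230 to 92096 bp without it. Of the markers listed for other cells, some had no peak in any library. These were S100a9, Cxcr2 and Retnlg of neutrophils, Cd3e, Cd8a and Pax5 of lymphocytes, Col1a2 and Col3a1 of fibroblasts and Gata1 of erythroid cells. Of 8 neutrophil markers, 4 had peaks in all libraries (Elane, Prtn3, Ltf and S100a8). The list summed to 7037 to 8948 bp with PAM3 and 10862 to 12511 bp without it. Peaks also lay on all 6 dendritic cell markers in at least 1 library, summing to 17971 to 23032 bp with PAM3 and 22145 to 30022 bp without it. Of 9 lymphocyte markers, 3 had peaks in all libraries (Cd3d, Lck and Ms4a1). That list summed to 7638 to 11550 bp with PAM3 and 10870 to 13724 bp without it. Of 8 fibroblast and endothelial markers, Cdh5, Kdr and Pecam1 had peaks in all libraries and the list summed to 16550 to 17797 bp with PAM3 and 16431 to 19669 bp without it. Of 7 erythroid and megakaryocyte markers, Klf1, Epor, Pf4 and Itga2b had peaks in all libraries and the list summed to 8918 to 11283 bp with PAM3 and 8865 to 11658 bp without it. The part of these in the results was not tested. In bulk material, fewer cells carrying a mark and less mark per cell cannot be told apart.

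The distal regions were scattered over 2212 stretches between neighbouring genes, and 2889 protein-coding genes were the nearest gene of at least 1 of them. Their median width was 1535 bp (quartiles 928 and 2234 bp), and the widest spanned 16822 bp. The median distance to the nearest gene body was 57524 bp, with quartiles of 33083 and 120164 bp. Of all distal regions, 3269 (30.4%) were over 100 kb away and 262 over 500 kb away. A core of 3268 regions (30.4%) was called in all 8 libraries, against 35.9% of the regions 1 to 20 kb from a gene, 29% of those inside genes and 67% of those within 1 kb of a gene end. The share called in all 8 was 32.1% at 20 to 50 kb, 31.3% at 50 to 100 kb, 29.5% at 100 to 250 kb, 24.1% at 250 to 500 kb and 15.6% beyond that. Regions far out in gene deserts were thus called in fewer libraries than those nearer to genes. At the distance threshold the values ran on evenly. Regions 20 to 25 kb from a gene had a median called length of 686 bp, with 35.7% called in all libraries, and those 15 to 20 kb away had 705 bp and 37.2%. Among distal regions, the median called length was 518 bp where 2 libraries had a peak and 378 bp in those left out because 1 library had.

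The word intergenic held for these regions only with regard to protein-coding genes. Of the 10747, 2887 (26.9%) overlapped a long noncoding RNA gene of the RefSeq table, against 18.4% of the regions 1 to 20 kb from a gene, 6.4% of those inside genes and 12.5% of those near gene ends. A further 39 overlapped an immunoglobulin or T cell receptor V segment, 177 a pseudogene and 15 a transfer RNA gene. Regions in long noncoding RNA genes were called in all 8 libraries in 35.3% of cases, against 28.6% outside them. With PAM3, 12.6% were longer and 9.8% shorter inside such genes, against 14% and 10.2% outside them. The named long noncoding RNAs with the most distal regions among those looked up were Pvt1, which lies beside Myc, with 29, and Morrbid, with 18. These lncRNAs were chosen after their values were seen. In Pvt1, 8 regions were longer and 1 was shorter with PAM3, and in Morrbid 1 was longer and 2 were shorter. The region at the Morrbid start, chr2:128427450-128430341, was called over 2883 and 2889 bp after 25HC then PAM3, 2176 and 2795 bp after PAM3, 1651 and 2003 bp after 25HC and 1919 and 2152 bp in untreated cells. It was the longer one, by 0.41 ± 0.07 on the log2 scale (limma adjusted p = 0.0158), and the call was lost without 25HC mouse A.

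No difference in the amount of distal acetylation between groups passed the test. A mean of 7464 ± 277 distal regions had a peak after 25HC then PAM3, 7178 ± 547 after PAM3, 7296 ± 63.6 after 25HC and 7526 ± 15.6 in untreated cells (SD, n = 2 each). Both libraries of the group held 6486, 5974, 6282 and 6539 of them in the same order of groups. Called length summed to 10.2 ± 0.695 Mb after 25HC then PAM3, 9.19 ± 1.72 Mb after PAM3, 9.13 ± 0.4 Mb after 25HC and 9.8 ± 0.482 Mb in untreated cells. Between the 4 libraries with PAM3 and the 4 without, the difference was -90.2 regions (exact permutation p = 0.8, two-sided) and 0.209 Mb (exact permutation p = 0.743). Between the 4 libraries with 25HC and the 4 without, it was 28.2 regions (exact permutation p = 0.971) and 0.152 Mb (exact permutation p = 0.829). The smallest p that 4 against 4 libraries allow is 0.0286, and these 4 tests were the whole family. Single libraries set the sign and size of these differences. Without PAM3 mouse A they were 86.3 regions and 0.779 Mb for PAM3, and -159 regions and -0.357 Mb for 25HC. Without 25HC then PAM3 mouse B they were -203 regions and -0.118 Mb for PAM3, and -65.1 regions and -0.185 Mb for 25HC. Without PAM3 mouse B they were -171 regions and -0.0341 Mb for PAM3, and 99 regions and 0.455 Mb for 25HC. Leaving out each library in turn, the differences for PAM3 ran from -203 to 86.3 regions and from -0.118 to 0.779 Mb, and those for 25HC from -159 to 99 regions and from -0.357 to 0.455 Mb. The difference for PAM3 was -621 regions (exact permutation p = 0.0857) and -0.639 Mb with peaks of a −log10 q of at least 5, -319 regions (exact permutation p = 0.0571) and -0.0562 Mb with regions called in 3 or more libraries, and -223 regions (exact permutation p = 0.143) and 0.0426 Mb with the same number of peaks from each library. The difference for 25HC was -198 regions and -0.272 Mb with that limit on q, -57.8 regions and 0.0222 Mb with 3 or more libraries and 226 regions and 0.357 Mb with the same number of peaks. None of these alternatives passed the test.

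**Figure D1:**
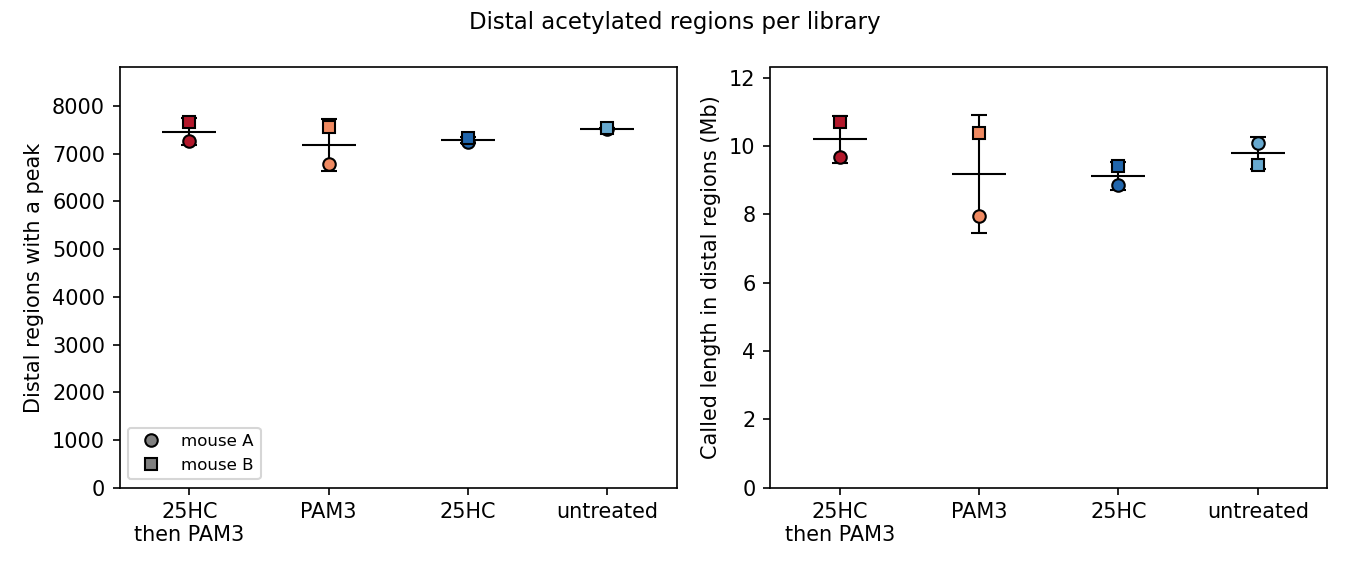
Number of distal regions with a peak (left) and their summed called length in Mb (right) in each library, as points by mouse with the group mean and SD as bars, for 25HC then PAM3, PAM3, 25HC and untreated. The points run from 6791 to 7660 regions and from 7.97 to 10.7 Mb, with PAM3 mouse A lowest in both panels.

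Distal regions were shorter than regions near gene ends and about as long as regions inside genes. The median called length of a distal region with a peak was 1119 ± 71.1 bp over the 8 libraries (SD), against 1265 ± 59 bp in all other regions, and it was lower in all 8 libraries (exact sign-flip permutation p = 0.00781, the smallest 8 libraries allow). Against regions near gene ends, at 1514 ± 56.2 bp, the gap was -395 bp, with 0 of 8 libraries higher (exact sign-flip p = 0.00781). Against regions 1 to 20 kb from a gene, at 1078 ± 61.8 bp, distal regions were longer by 40.8 bp in 8 of 8 libraries (exact sign-flip p = 0.00781). Against regions inside genes, at 1098 ± 62.2 bp, they were longer by 20.8 bp in 6 of 8 libraries, which did not pass the test (exact sign-flip p = 0.125). The lower median against all other regions was thus a difference from the regions near gene ends, and its sign was the opposite against regions 1 to 20 kb from a gene. The authors' fold enrichment per peak had a median of 1.68 ± 0.0715 in distal regions and 1.69 ± 0.0792 in all others, a difference of -0.0104 (exact sign-flip p = 0.219, n = 8 libraries).

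PAM3 changed the called length of many distal regions, and on average over the 25HC treatments more were longer than shorter. After 25HC, 1130 were longer and 656 shorter with PAM3, but without 25HC the counts were even at 572 and 574. With a floor of 500 bp on the mean called length, the averaged effect had 722 longer and 678 shorter. Averaged over cells with and without 25HC, 1462 distal regions were longer and 1084 shorter with PAM3 (limma, adjusted p under 0.05 over all 63103 regions). That was 23.7% of the distal regions, against a background of 17.6% of all regions tested. By direction, 13.6% of distal regions were longer and 10.1% shorter, against 9.89% and 7.71% of all regions. The other positions had 10.9% longer and 9.35% shorter at 1 to 20 kb from a gene, 10.5% and 7.56% inside genes, and 4.74% and 4.94% near gene ends. Calls were therefore least frequent near gene ends and most frequent in distal regions, and no test was made of these shares. The share that was longer showed no trend with distance, at 13.3%, 14.6%, 13.1%, 14% and 12.6% over the 5 distance classes from 20 kb outward. Leaving out 1 library at a time gave 1727 to 2582 calls. With peaks limited to a −log10 q of at least 5, none of 8397 distal regions passed in any of the 6 contrasts (limma). For the average PAM3 effect, 1839 were under an unadjusted limma p of 0.05. No call was thus kept under that limit. It also cut the regions tested to 51056, and what removed the calls was not tested.

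**Figure D2:**
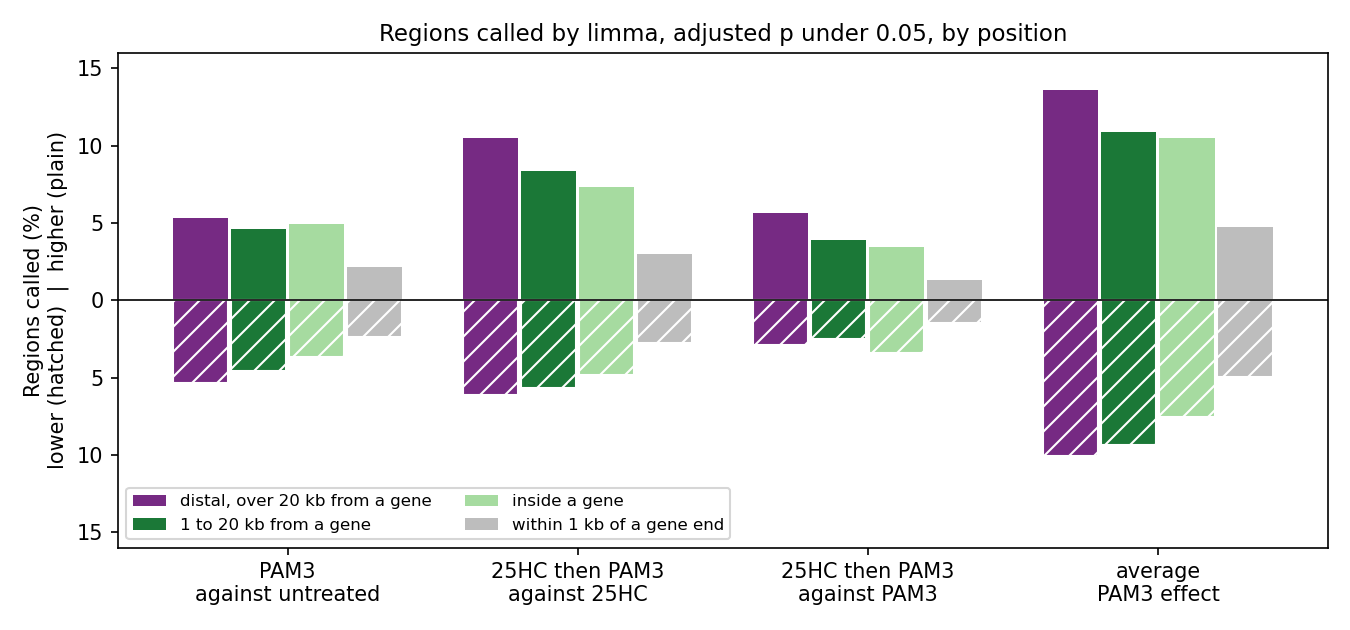
Share of regions that limma called at an adjusted p under 0.05 in each position class, with plain bars above 0 for longer and hatched bars below 0 for shorter called length, for 4 contrasts. For 25HC then PAM3 against 25HC, distal regions reach 10.5% longer and 6.1% shorter, against 2.99% and 2.75% near gene ends.

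The largest rises were regions with no peak at all in cells without PAM3. The region at chr5:29878553-29882882, between Dnajb6, a chaperone gene, and Il6, the gene of interleukin 6, was called over 4330 and 3525 bp after 25HC then PAM3 and over 2511 and 2633 bp after PAM3, against 0 bp in the 4 libraries without PAM3 (limma adjusted p = 0.00144). The region at chr10:96092410-96095891, 46891 bp from Eea1, which encodes a tether of early endosomes, was called over 3310 and 3269 bp after 25HC then PAM3 and 2541 and 3380 bp after PAM3, and over 0 bp in the other 4. A region 63589 bp from Edn1, the gene of the peptide endothelin 1, at chr13:42371580-42374779, was called over 3114 and 2983 bp after 25HC then PAM3 and 1991 and 3096 bp after PAM3, and over 0 bp in the other 4. These regions were chosen as the largest rises, so their separation of libraries with and without PAM3 follows from that choice. The other 7 of the 10 largest rises lay nearest to Stk31, which had a pair of them, Lmo4, Tmem123, Rnd3, Tm4sf1 and Spcs3. Their called lengths in the libraries with PAM3 ran from 2216 to 3385 bp, and the only library without PAM3 with a peak was untreated mouse B at Tmem123, over 219 bp. A fold change is not given where 1 side is at 0, since the added 500 bp would set it. Adjusted p-values of such regions may be too small because zeros show no spread. Regions with peaks only with PAM3, or only without it, here and below, passed the rule of 2 libraries through those libraries alone. Their adjusted p-values may be too small for that reason too.

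The largest falls were the mirror image, with peaks only in the absence of PAM3 apart from the region nearest to Hrh4. The region at chr13:85440669-85443957, 151182 bp from Rasa1, whose product is a GTPase-activating protein of Ras, was called over 0 bp in the 4 libraries with PAM3, against 3077 and 2937 bp after 25HC and 2823 and 2820 bp in untreated cells (limma adjusted p = 0.00144). The region at chr13:51322574-51325554, 83063 bp from the sphingosine 1-phosphate receptor gene S1pr3, was called over 0 bp in the 4 libraries with PAM3, against 2584 and 2949 bp after 25HC and 2805 and 2838 bp in untreated cells. The region at chr10:16750700-16754304, which lies 968923 bp from Cited2, the gene of a transcriptional co-regulator, had 0 bp with PAM3, against 1934 and 3045 bp after 25HC and 2425 and 3102 bp in untreated cells. Falls of this kind also lay nearest to Chst15, Cand1, Slc28a3, Kcnrg, Tbl1xr1 and Adcyap1r1. The Gm34441, Gm33982 and Gm34058 windows printed above stand in the regions nearest to Adcyap1r1, Cand1 and Slc28a3. Of the 20 regions with the largest changes, 18 kept their call in all alternatives other than the limit on −log10 q.

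**Figure D3:**
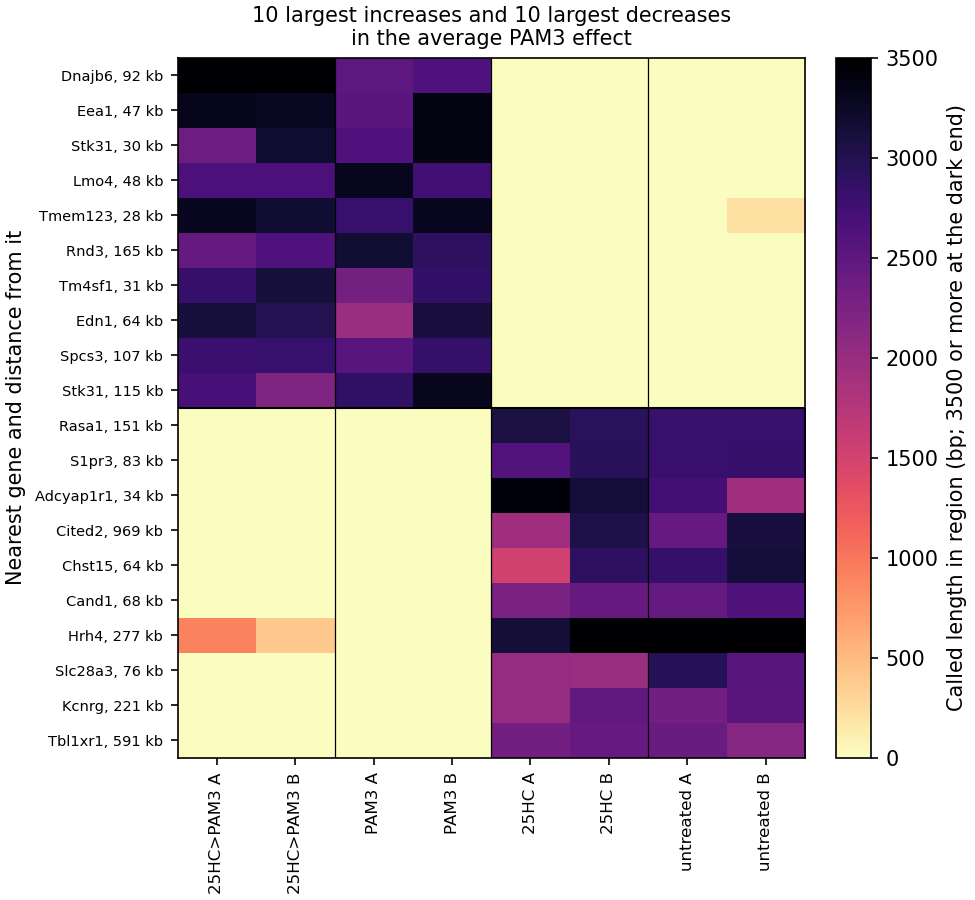
Called length in bp, in each of the 8 libraries, of the 10 distal regions with the largest rise and the 10 with the largest fall in the average PAM3 effect, named by nearest gene and distance in kb. Rises are dark in the 4 libraries with PAM3 and white without it, with 219 bp at Tmem123 in untreated mouse B as the exception, and falls show the reverse apart from the region nearest to Hrh4 in the 25HC then PAM3 libraries.

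PAM3 was also examined separately in cells with and without 25HC. After 25HC, 1130 distal regions were longer and 656 shorter with PAM3 (16.6%, against 11.9% of all regions, of which 7.11% were longer and 4.75% shorter). Without 25HC, 572 were longer and 574 shorter with PAM3 (10.7%, against 8.2% of all regions, of which 4.38% were longer and 3.82% shorter). The contrasts share no library, but they share each region's variance estimate from the fit over all 8 libraries. A region with a small variance is favoured in both, so their overlap is not independent agreement. With that limit, 611 regions were called in both, or 34.2% of the calls after 25HC and 53.3% of those without it. Of these, 311 were longer in both, 289 shorter in both and 11 went opposite ways. By presence alone, 1368 distal regions (12.7%, against 9.22% of all) had peaks in both libraries after 25HC then PAM3 and in neither after 25HC, and 998 (9.29%, against 6.81%) the reverse. Between PAM3 and untreated cells 784 (7.3%, against 6.31%) appeared and 1049 (9.76%, against 6.92%) disappeared. In both comparisons at once, 329 (3.06%, against 2.14% of all) appeared with PAM3 and 383 (3.56%, against 2.08%) disappeared. The count for PAM3 against untreated fell to 453 calls without untreated mouse A, 556 without untreated mouse B and 699 with mouse as a block. The count after 25HC was 932 without 25HC mouse A and 810 without 25HC mouse B. With a floor of 500 bp on the mean called length, 510 were longer and 452 shorter with PAM3 after 25HC. Without 25HC, 339 were longer and 344 shorter above that floor.

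Regions near cytokine and chemokine genes were more often called longer than shorter with PAM3. Of 34 such genes, 13 were nearest to a distal region, with 43 regions in all. In the average PAM3 effect 19 of the 43 were longer and 2 shorter (44.2% and 4.65%, against 13.6% and 10.1% of all distal regions), and the median difference over the 43 was 0.488 on the log2 scale. After 25HC, PAM3 lengthened 18 and shortened 1, and without 25HC it lengthened 8 and shortened 2, at a median difference of 0.0552. Il6, the gene of a cytokine of the acute phase, had 6 distal regions. The one at chr5:29918957-29921515, 91598 bp away, was called over 2510 and 2544 bp after 25HC then PAM3 and 1481 and 2450 bp after PAM3, against 0 bp in the other 4 libraries (limma adjusted p = 0.00156). The one at chr5:29967911-29970550, 42563 bp away, was called over 2549 and 2519 bp after 25HC then PAM3 and 770 and 931 bp after PAM3, against 0 bp in the other 4 (limma adjusted p = 0.00158). A region between them, chr5:29945919-29950281, was called in all 8 libraries, over 4341 and 3627 bp after 25HC then PAM3, 1328 and 3412 bp after PAM3, 1481 and 1637 bp after 25HC and 2912 and 3503 bp in untreated cells, with a difference of 0.35 ± 0.22 (limma adjusted p = 0.335). The Il6 flank thus held a region already called in resting cells between others called only with PAM3. The 6 regions summed to 14.5 and 15 kb after 25HC then PAM3, 6.35 and 10.4 kb after PAM3, 1.48 and 1.64 kb after 25HC and 2.91 and 3.5 kb in untreated cells.

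Il1b, which encodes interleukin 1β, had 5 distal regions, of which 4 were longer with PAM3, or 2 with mouse as a block and 2 without PAM3 mouse A. The region 23855 bp from it, at chr2:129337539-129340713, was called over 2603 and 3046 bp after 25HC then PAM3, 2463 and 3099 bp after PAM3, 773 and 799 bp after 25HC and 883 and 876 bp in untreated cells. It rose by 1.33 ± 0.06 on the log2 scale (limma adjusted p = 0.00144), with no overlap between libraries with and without PAM3. Csf2, the gene of the growth factor GM-CSF, had 3 distal regions, and the one at chr11:54222915-54225083 was called over 2169 and 1653 bp after 25HC then PAM3 and 716 and 951 bp after PAM3, against 0 bp in the other 4 (limma adjusted p = 0.00224). The single region nearest to Ccl2, which encodes a chemokine for monocytes, was called in every library, at chr11:82003667-82010161. Its lengths were 5839 and 5634 bp after 25HC then PAM3, 4630 and 5010 bp after PAM3, 2853 and 3396 bp after 25HC and 3535 and 2383 bp in untreated cells, a rise of 0.74 ± 0.11 (limma adjusted p = 0.0115). Regions described singly in this and the following lists include some chosen after their values were seen.

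Among 40 inflammatory effector and NF-κB feedback genes, 17 were nearest to a distal region, with 102 regions. Of these, 27 were longer and 3 shorter with PAM3 (26.5% and 2.94%), and the median difference was 0.533. Nfkbiz, which encodes the nuclear IκB protein that helps induce secondary response genes such as Il6, had 23 regions, of which 9 were longer and none shorter. Its region at chr16:55765311-55768757, 42617 bp away, was called over 2025 and 3447 bp after 25HC then PAM3 and 2631 and 2657 bp after PAM3, against 0 bp in the other 4 (limma adjusted p = 0.00158). Summed over the 23 regions, called length was 31.7 and 36.3 kb after 25HC then PAM3, 30.2 and 43.4 kb after PAM3, 15.7 and 14.2 kb after 25HC and 17.3 and 18.2 kb in untreated cells. Tnfaip3, which encodes A20, a brake on NF-κB, had 28 regions, with 8 longer and none shorter, and 5 longer with mouse as a block. The Tnfaip3 region at chr10:19159527-19161899 was called over 1318 and 1359 bp after 25HC then PAM3 and 1177 and 2314 bp after PAM3, against 0 bp in the other 4 (limma adjusted p = 0.00247). Ptgs2, the gene of cyclooxygenase 2, had 8 regions that summed to 9.22 and 11.6 kb after 25HC then PAM3, 0 and 6.63 kb after PAM3, 0.993 and 0 kb after 25HC and 0 and 0.737 kb in untreated cells. PAM3 mouse A had no peak in any Ptgs2 region, while PAM3 mouse B reached 6.63 kb, so the PAM3 mice differed widely there. For this list the number longer was 15 without 25HC mouse A, 13 without 25HC mouse B, 12 without untreated mouse A and 12 without untreated mouse B.

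**Figure D4:**
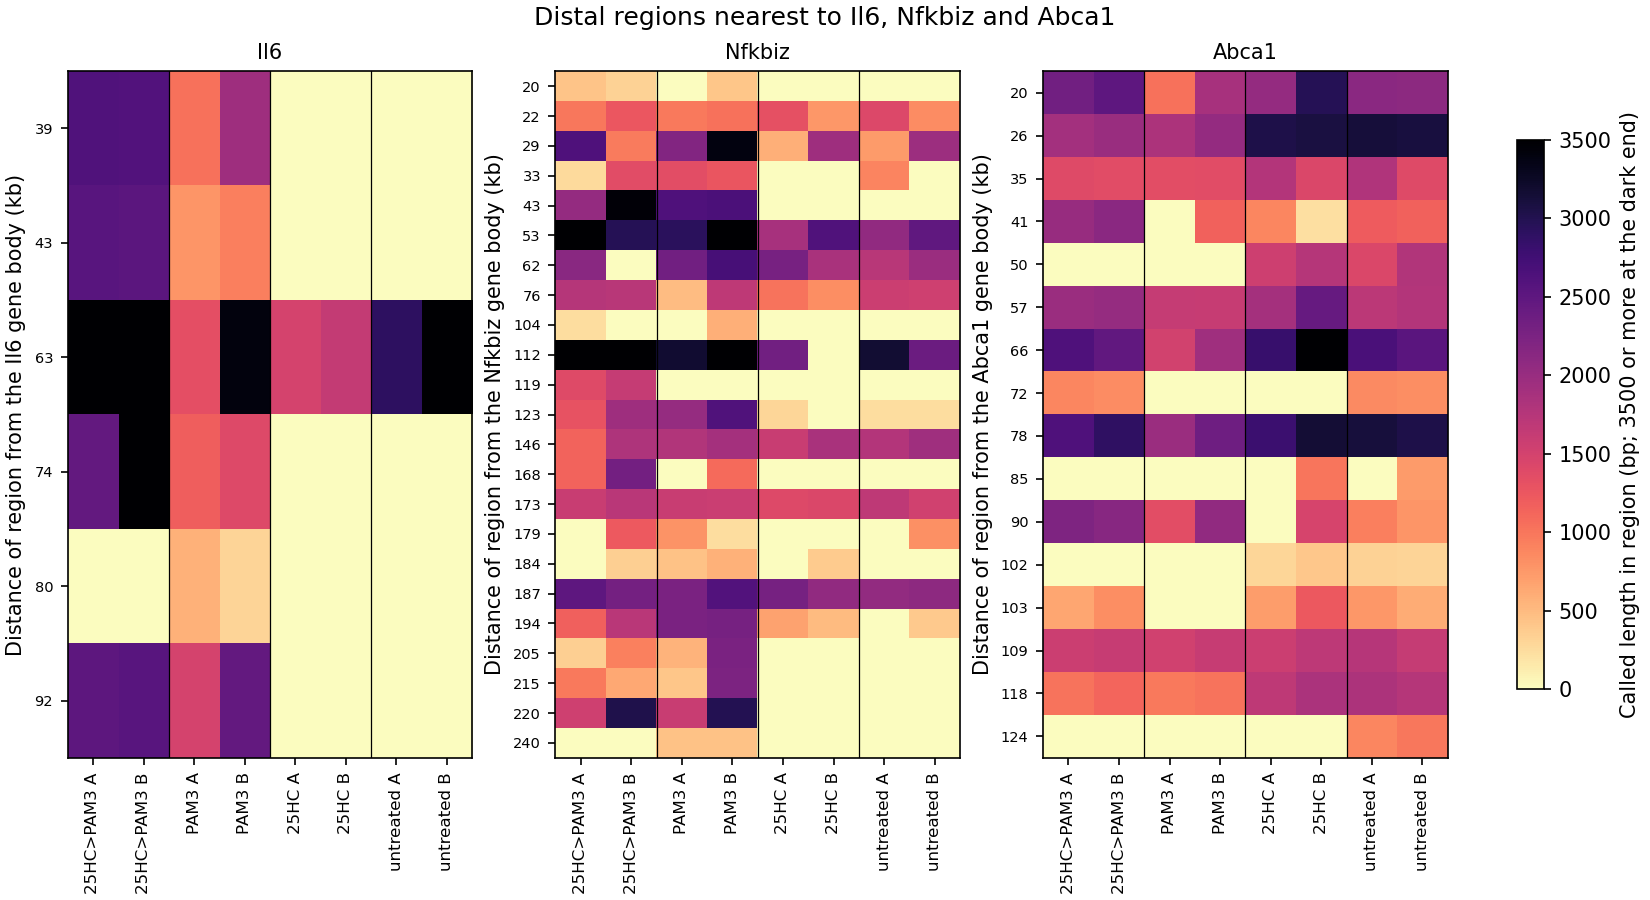
Called length in bp of every distal region nearest to Il6 (6), Nfkbiz (23) and Abca1 (16) in each of the 8 libraries, ordered by distance from the gene body in kb; the label 25HC>PAM3 stands for 25HC then PAM3. At Il6 and Nfkbiz several rows are filled only in the 4 libraries with PAM3, and at Abca1 the row at 50 kb is filled only in the 4 libraries without it.

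Genes of AP-1 and other stimulus-induced regulators numbered 27, and 17 of them were nearest to 260 distal regions. With PAM3, 70 of the 260 were longer and 8 shorter (26.9% and 3.08%, against 13.6% and 10.1% of all distal regions), at a median difference of 0.44. Klf6 and Myc, genes of transcription factors, held most of these. Klf6 had 72 regions with 24 longer and 1 shorter, and Myc had 59 with 24 longer and 1 shorter. The Klf6 region at chr13:5829383-5831520, 29968 bp away, was called over 1322 and 1360 bp after 25HC then PAM3 and 1954 and 1949 bp after PAM3, against 0 bp in the other 4 (limma adjusted p = 0.00158). The Myc region at chr15:62264564-62267762, 274202 bp away, was called over 3164 and 2964 bp after 25HC then PAM3, 2394 and 2950 bp after PAM3, 1221 and 1260 bp after 25HC and 498 and 0 bp in untreated cells (limma adjusted p = 0.00794). Summed over the 59 Myc regions, called length was 55.1 and 67.6 kb after 25HC then PAM3, 53.0 and 68.7 kb after PAM3, 29.4 and 27.3 kb after 25HC and 25.7 and 19.8 kb in untreated cells. Fos had 7 regions and Jun 19, genes of the AP-1 subunits themselves, and limma called none at Fos, and 1 longer and 2 shorter at Jun. Most of the calls in this list thus lay near Klf6 and Myc, and few near Fos and Jun. In the whole list the number longer was 45 without 25HC mouse A, 44 without 25HC mouse B, 41 without untreated mouse A and 44 without untreated mouse B, and the number shorter ran from 3 to 13, the highest without PAM3 mouse A.

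**Figure D5:**
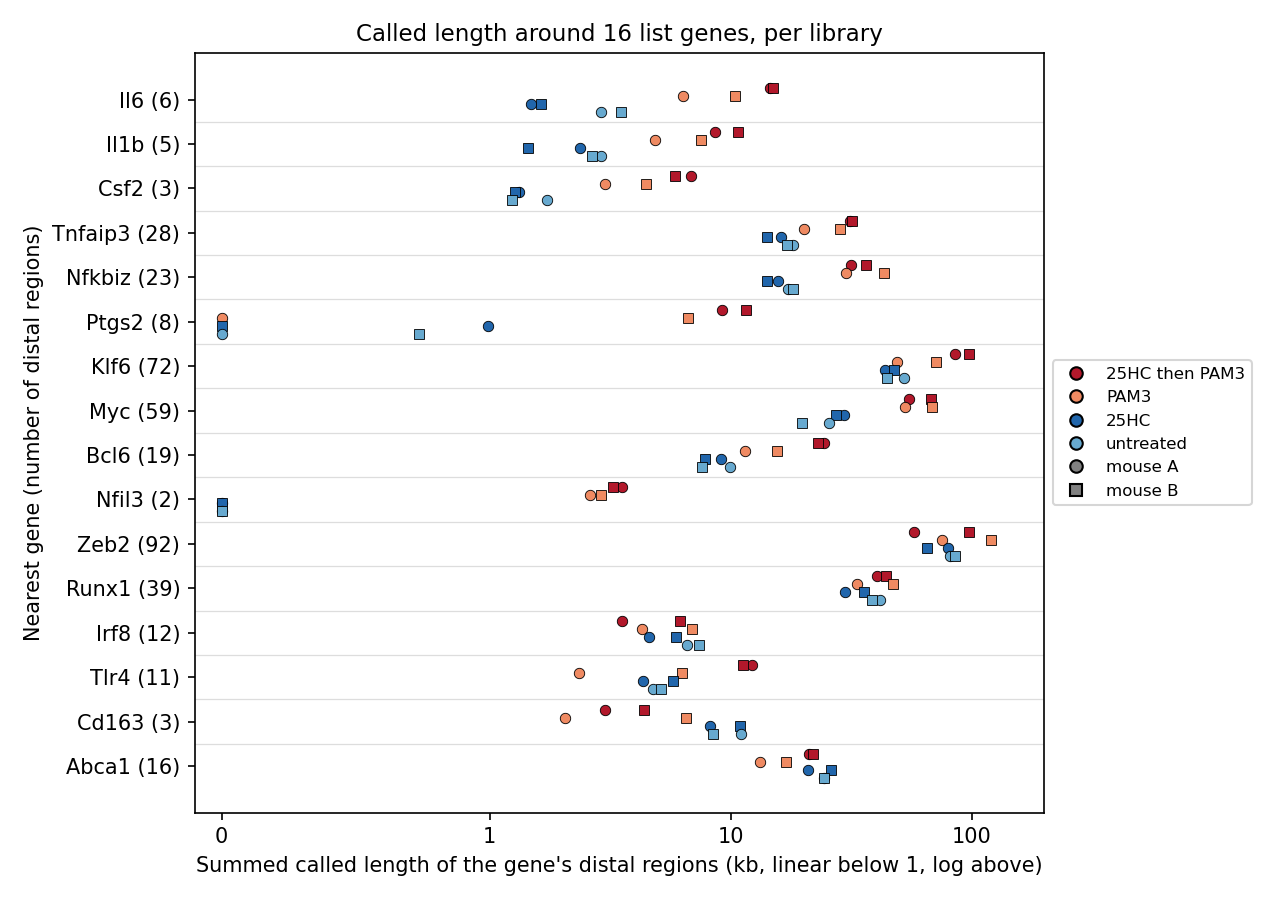
Summed called length, in kb on an axis that is linear below 1 and logarithmic above, of the distal regions nearest to 16 genes of the lists, with a point for each library coloured by group and shaped by mouse. At Il6, Il1b, Csf2, Nfkbiz, Tnfaip3, Myc, Bcl6 and Nfil3 all 4 libraries with PAM3 lie above all 4 without it, and at Cd163 all 4 lie below.

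Regions near macrophage lineage regulators were called in both directions, at shares near or below those of all distal regions. Of 28 such genes, 21 were nearest to 308 distal regions, of which 37 were longer and 15 shorter with PAM3 (12% and 4.87%, against 13.6% and 10.1% of all distal regions), at a median difference of 0.0432. Zeb2, which encodes a zinc finger repressor needed for the identity of tissue macrophages, had 92 regions, the most of the list, with 8 longer and 2 shorter, or 5 longer with mouse as a block. Its region at chr2:45750957-45754957 lay 633514 bp away and was called over 1615 and 1724 bp after 25HC then PAM3 and 2181 and 2347 bp after PAM3, against 0 bp in the other 4 (limma adjusted p = 0.00147). Bcl6, which encodes a repressor of inflammatory genes, had 19 regions, 8 longer and none shorter, or 5 longer with mouse as a block. Maf, the gene of a factor of resident macrophages, had regions of both kinds. The Maf region at chr8:115568136-115571295 was called over 2171 and 3066 bp after 25HC then PAM3, 3160 and 3069 bp after PAM3, 391 and 1098 bp after 25HC and 975 and 983 bp in untreated cells, a rise of 1.35 (limma adjusted p = 0.00988). The Maf region at chr8:115610596-115619805 was called over 4026 and 5283 bp after 25HC then PAM3, 5682 and 6192 bp after PAM3, 6538 and 7131 bp after 25HC and 8776 and 6834 bp in untreated cells, a fall of -0.42 ± 0.10 (limma adjusted p = 0.0411) that was lost with mouse as a block (limma adjusted p = 0.0756) and without 6 of the 8 libraries in turn. Of all 24 Maf regions, 2 were called longer and 3 shorter, or 2 and 2 with mouse as a block, so calls at Maf went both ways. Runx1 had 39 regions with 3 longer, or 1 with mouse as a block, and Irf8, which encodes a factor of monocyte fate, had 12 with 1 shorter, a call lost with the block. Over the list the number longer was 23 with mouse as a block, 16 without 25HC mouse A and 17 without 25HC mouse B, and the number shorter was 9 without 25HC mouse A.

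Of 29 macrophage identity and surface genes, 9 were nearest to 27 distal regions, with 7 longer and 8 shorter with PAM3 (25.9% and 29.6%). Leaving out each library in turn gave 3 to 9 longer and 4 to 7 shorter, with 3 longer without 25HC mouse A, 4 longer without 25HC mouse B, and 4 or 5 shorter without every library except 25HC mouse A and PAM3 mouse A. Cd163, which encodes the scavenger receptor for haemoglobin and haptoglobin, had 3 regions, of which 2 were shorter. The one 27536 bp away, at chr6:124358066-124361875, was called over 518 and 661 bp after 25HC then PAM3, 847 and 874 bp after PAM3, 2792 and 3762 bp after 25HC and 3791 and 3801 bp in untreated cells. It fell by 1.70 ± 0.09 on the log2 scale (limma adjusted p = 0.00147), without overlap between libraries with and without PAM3. The region nearest to Ccr2, the gene of the receptor for Ccl2, at chr9:124067102-124074615, was called over 2505 and 2472 bp after 25HC then PAM3, 3110 and 2488 bp after PAM3, 5262 and 5323 bp after 25HC and 7478 and 5567 bp in untreated cells, a fall of -1.0 (limma adjusted p = 0.00774). Tlr4, the gene of the lipopolysaccharide receptor, had 11 regions with 5 longer and 3 shorter. None of the 19 interferon-stimulated genes found in the table, of 21 listed, was the nearest gene of a distal region.

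In the list of lipid and sterol genes more regions were called shorter than longer with PAM3, mostly near Abca1. Of 26 genes, 12 were nearest to 54 distal regions, at a median difference of -0.0349 with PAM3. Of the 54, 3 were longer and 11 shorter (5.56% and 20.4%, against 13.6% and 10.1% of all distal regions). Of the 11, 8 lay near Abca1 and 1 each near Cyp7b1, Insig1 and Mylip. The number shorter was 7 without 25HC then PAM3 mouse B, untreated mouse A or untreated mouse B. All 3 that were longer lay near Acsl1, which encodes an acyl-CoA synthetase. The Acsl1 region at chr8:46429617-46434602, 36434 bp away, was called over 4959 and 4930 bp after 25HC then PAM3, 4479 and 4558 bp after PAM3, 1317 and 938 bp after 25HC and 233 and 0 bp in untreated cells (limma adjusted p = 0.00158). Abca1, the gene of the cholesterol exporter that liver X receptors induce, had 16 regions, of which 8 were shorter and none longer, or 6 shorter with mouse as a block. At chr4:53209576-53211720, 49587 bp from Abca1 and inside the long noncoding RNA gene Lexis1, the region was called over 0 bp in the 4 libraries with PAM3, against 1546 and 1763 bp after 25HC and 1425 and 1781 bp in untreated cells (limma adjusted p = 0.00178). At chr4:53185604-53188730, 25615 bp away, the lengths were 1901 and 1986 bp after 25HC then PAM3, 1823 and 2037 bp after PAM3, 3040 and 3077 bp after 25HC and 3120 and 3095 bp in untreated cells, a fall of -0.53 ± 0.05 (limma adjusted p = 0.00238) that was lost when all lists were held to the same number of peaks. At the start of Mexis, whose sequence is printed above, the region at chr4:53269286-53271081 measured 1560 and 1607 bp after 25HC then PAM3, 1530 and 1601 bp after PAM3, 1566 and 1683 bp after 25HC and 1741 and 1623 bp in untreated cells (-0.03 ± 0.06, limma adjusted p = 0.767). The Abca1 neighbourhood therefore lost called length at some regions. The region at the Mexis start kept its length within the spread of the libraries. Of the 3 distal regions that overlapped the Mexis gene, 2 were called shorter in the average PAM3 effect and none longer. Ch25h itself, the gene of the enzyme that makes 25-hydroxycholesterol, had 7 distal regions, none called. Near Cyp7b1, whose enzyme breaks down oxysterols, the region at chr3:18318479-18321104 was called over 0 and 0 bp after 25HC then PAM3, 297 and 218 bp after PAM3, 1766 and 2063 bp after 25HC and 2418 and 2538 bp in untreated cells (limma adjusted p = 0.00159).

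25HC alone changed few distal regions past the threshold. Against untreated cells, 4 distal regions were longer and 2 shorter after 25HC (0.0558%, against 0.057% of all regions, of which 0.0285% were longer and 0.0285% shorter), a share at the background. With mouse as a block none passed (limma), and the count ran from 0 to 52 when single libraries were left out. Regions nearest to Rnf180, Igf1, Nfe2l2, App and Ccdc91 were among them. The region 51447 bp from Nfe2l2, the gene of the antioxidant regulator NRF2, at chr2:75756111-75758595, was called over 1837 and 1800 bp after 25HC then PAM3, 1269 and 1734 bp after PAM3, 1771 and 1794 bp after 25HC and 0 bp in both untreated libraries (limma adjusted p = 0.0241). The region 51012 bp from Igf1, the gene of insulin-like growth factor 1, at chr10:87803838-87807252, was called over 3305 and 3309 bp after 25HC then PAM3, 1728 and 2169 bp after PAM3, 1608 and 2161 bp after 25HC and 0 bp in both untreated libraries (limma adjusted p = 0.0168). Both were absent from untreated cells and present in the other 3 groups. By presence, 191 distal regions (1.78%, against 1.53%) appeared and 351 (3.27%, against 3.06%) disappeared after 25HC.

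25HC given before PAM3 was set against PAM3 alone. Here 609 distal regions were longer and 313 shorter after 25HC then PAM3 (8.58%, against 6.22% of all regions, of which 3.44% were longer and 2.77% shorter). The counts were 566 with mouse as a block, and 603 without 25HC mouse B, 611 without untreated mouse A and 606 without untreated mouse B. With a floor of 500 bp on the mean called length, 154 were longer and 127 shorter, of 6347 distal regions. Most of the surplus of longer regions was thus not seen above that floor. By presence, 828 (7.7%, against 5.29%) had peaks in both libraries after 25HC then PAM3 and in neither after PAM3, and 565 (5.26%, against 4.97%) the reverse. Called in both libraries of 25HC then PAM3 and in no other library were 508 distal regions (4.73%, against 2.96% of all), and in both PAM3 libraries and no other 173 (1.61%, against 1.5%). The same count was 43 (0.4%, against 0.35%) for 25HC and 159 (1.48%, against 1.2%) for untreated cells. Missing from both libraries of a group but called in all 6 others were 182 (1.69%, against 1.58%) for 25HC then PAM3, 114 (1.06%, against 0.718%) for PAM3, 45 (0.419%, against 0.383%) for 25HC and 47 (0.437%, against 0.33%) for untreated cells. PAM3 mouse A had the fewest distal regions of all libraries, and its part in the number absent from both PAM3 libraries was not tested.

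The largest differences between 25HC then PAM3 and PAM3 alone were of several kinds. The region at chr13:12640665-12644243, 31131 bp from Ero1b, an oxidase gene of the endoplasmic reticulum, was called over 3532 and 3505 bp after 25HC then PAM3, 0 bp in both PAM3 libraries, 3427 and 2607 bp after 25HC and 2359 and 2395 bp in untreated cells (limma adjusted p = 0.00617). This region was absent only after PAM3 alone. The region at chr6:35423743-35426834, 81989 bp from Mtpn, was called only after 25HC then PAM3, over 2976 and 3092 bp (limma adjusted p = 0.00785). In the other direction, the region at chr12:32237220-32239865, 28542 bp from Pik3cg, which encodes a phosphoinositide 3-kinase of leukocytes, was called over 0 bp after 25HC then PAM3, 2329 and 2344 bp after PAM3, 1933 and 2472 bp after 25HC and 2574 and 2393 bp in untreated cells (limma adjusted p = 0.00601). Regions at chr9:80037105-80041445, near Filip1, and chr15:62969882-62973250, in the stretch between Myc and Gsdmc, were called only after PAM3 alone, over 3179 and 4302 bp and over 3324 and 3310 bp (limma adjusted p = 0.00785 for each). The Mtpn region and those near Filip1 and between Myc and Gsdmc were kept only through the group that had their peaks. Their p-values may therefore be too small, since the zeros of the other libraries also show no spread. Near Tlr4, the region at chr4:66795213-66797840 was called over 2454 and 2138 bp after 25HC then PAM3, 0 bp in both PAM3 libraries, 2526 and 2540 bp after 25HC and 2579 and 2544 bp in untreated cells (limma adjusted p = 0.00601). Near Lmo2, which encodes a haematopoietic co-regulator, the region at chr2:103934130-103936044 was called over 0 bp after 25HC then PAM3, 1906 and 1839 bp after PAM3, 1743 and 1834 bp after 25HC and 1895 and 1763 bp in untreated cells (limma adjusted p = 0.0075). Of the 20 regions with the largest differences, 17 kept their call in all alternatives other than the limit on −log10 q.

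Among the gene lists, 25HC then PAM3 against PAM3 alone called 5 of 43 cytokine regions longer (11.6%) and none shorter, and 10 longer (9.8%) and 1 shorter of 102 effector and feedback regions. Of 260 AP-1 and stimulus regions 18 were longer and 6 shorter (6.92% and 2.31%), and of 308 lineage regions 19 were longer and 7 shorter (6.17% and 2.27%). The shares of the AP-1 and lineage regions lay near those of all distal regions, 5.67% longer and 2.91% shorter. Longer in the same test were 2 of 27 identity regions (7.41%) and 2 of 54 lipid regions (3.7%), with none shorter. The Bcl6 region at chr16:24120348-24122002 was called over 1619 and 1587 bp after 25HC then PAM3 and over 0 bp in the other 6 libraries (limma adjusted p = 0.00785). It too was kept only through the group that had its peaks, so its p-value may be too small. The Ptgs2 region at chr1:150150745-150152923 had 1937 and 2179 bp after 25HC then PAM3 and 0 bp in both PAM3 libraries (limma adjusted p = 0.00785). These comparisons share the PAM3 libraries with PAM3 against untreated, in which PAM3 mouse A covered the least. The test of whether the PAM3 effect differed with and without 25HC called 201 distal regions higher and 113 lower (2.92%, against 2.05% of all regions, of which 1.16% were higher and 0.881% lower). With mouse as a block none of them passed (limma), and the count was 0 without 25HC mouse A, 25HC mouse B or untreated mouse A, 25 without untreated mouse B, 36 without 25HC then PAM3 mouse B and 572 without PAM3 mouse A.

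Some stretches between genes held many distal regions, and the 12 fullest held 695 of them (6.47%). Over all distal regions, 13.6% were longer and 10.1% shorter with PAM3, and no test was made of the counts in single stretches. The stretch from Zeb2 to Acvr2a held 113 of them over 3697 kb, of which 10 were longer and 3 shorter with PAM3. The stretch from Myc to Gsdmc held 79 over 1786 kb, with 31 longer and 1 shorter. Its called length averaged 74.6 kb after 25HC then PAM3, 86.6 kb after PAM3, 39.7 kb after 25HC and 28.7 kb in untreated cells. From Akr1e1 to Klf6 there were 63, with 19 longer and 3 shorter, averaging 80.5, 64.7, 42.6 and 46.7 kb in the same order of groups. From Eea1 to Btg1, the gene of an antiproliferative factor, there were 53 in 571 kb, or 9.27 per 100 kb, with 10 longer and none shorter, averaging 99.9, 66.8, 45.9 and 49.9 kb. Between Pard3 and Nrp1, the gene of the receptor neuropilin 1, 2 of 47 were longer and 7 shorter. The mean called length of that stretch was lower with PAM3, at 40.6, 34, 51.6 and 56.3 kb. From Nmbr to Cited2, 58 regions were split 4 longer to 5 shorter. Regions of a stretch are neighbours on the same DNA and are not independent of each other.

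The acetylation of the nearest gene itself was compared with that of its distal regions, as called length over its gene body extended by 5 kb at each end. Distal regions longer with PAM3 were nearest to 785 genes, 697 of them testable, and of these gene windows 111 (15.9%) were longer and 32 (4.59%) shorter with PAM3 (limma over 14586 genes), against 5.9% and 5.95% of all genes. Distal regions shorter with PAM3 had 606 testable nearest genes, with 56 (9.24%) longer and 51 (8.42%) shorter. At Il6 the gene window was called over 4166 and 4902 bp after 25HC then PAM3, 1283 and 2696 bp after PAM3, 1369 and 1324 bp after 25HC and 1376 and 1130 bp in untreated cells. It rose by 0.95 on the log2 scale in the average PAM3 effect (limma adjusted p = 0.0168), by 1.42 after 25HC (limma adjusted p = 0.0259), and differed by 0.49 without 25HC (limma adjusted p = 0.289). At Cd163 it fell by 0.65 (limma adjusted p = 0.0122). At Tnfaip3 the gene window differed by -0.02 (limma adjusted p = 0.914), at Il1b by 0.20 (limma adjusted p = 0.557) and at Abca1 by 0.23 (limma adjusted p = 0.265), so the calls at their distal regions had no counterpart called at the gene window. At Pik3cg the gene window was longer by 1.09 with PAM3 (limma adjusted p = 0.00741), while its distal region described above was absent after 25HC then PAM3 and present after PAM3 alone.

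The 10 distal regions with the largest mean called length were called in all 8 libraries. The widest lay 54857 bp from Zfp36l2, which encodes a factor for decay of AU-rich messenger RNAs, at chr17:84112245-84129066. It was called over 6492 and 6416 bp after 25HC then PAM3, 5556 and 5787 bp after PAM3, 8720 and 10730 bp after 25HC and 16231 and 14478 bp in untreated cells. It fell by 0.93 ± 0.07 on the log2 scale with PAM3 (limma adjusted p = 0.0022), and untreated cells were longest in both mice. The region 28037 bp from Cd69, an early activation antigen gene, at chr6:129229673-129239286, measured 8023 and 7924 bp after 25HC then PAM3, 7574 and 9501 bp after PAM3, 7470 and 8519 bp after 25HC and 8561 and 8531 bp in untreated cells (0.02 ± 0.06, limma adjusted p = 0.868). The region near Dusp1, the gene of a MAP kinase phosphatase, at chr17:26529876-26538872, likewise overlapped between libraries with and without PAM3 (0.02 ± 0.08, limma adjusted p = 0.91). Of the 10, the regions near Zfp36l2 and Maf were called in the average PAM3 effect, both shorter.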

How the data were processed

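Acetyl-H4 chromatin immunoprecipitation was done with a Millipore rabbit polyclonal antibody and libraries were made with the KAPA Hyper Prep kit, per the labels' protocols. The submitters' processing notes name GSNAP, MACS2 2.1.0 and the build GRCm38 (mm10). Any control, read filter or peak threshold was not given in the sources used here. Each of the deposited lists holds 1 library, with a start and end per peak, the authors' score, the authors' fold enrichment ratio, and the deposited −log10 p-value and −log10 q-value of the peak. The score was not used in any test, and the ratio only to describe peaks. No read counts are held, so depth is unknown.

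Peaks on chromosomes 1 to 19 were merged where they overlapped by 1 bp, and placed on the RefSeq gene table of GRCm38.p6. Called length in a union region is the number of bases that a library's peaks cover there. log2(called bp + 500), minus the library's median over regions called in all 8 libraries, was fitted for 63103 regions with limma 3.58.1 in R 4.3.3 (trend and robust), with Benjamini-Hochberg adjustment and a threshold of 0.05. The average PAM3 effect is the mean of PAM3 against untreated and 25HC then PAM3 against 25HC. Differences given in the text are on that log2 scale, which understates changes of short regions. Single values per library were compared by exact permutation. A region counts as gained when both libraries of a group have a peak and neither of the other has. The limma test was checked on simulated normal values for PAM3 against untreated. Those values had no regions at 0 bp and no rule of 2 libraries. The check thus does not cover calls at regions absent from whole groups.

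Distances are to the nearest end of a gene body. Named regions were the longest, the 10 largest changes each way per contrast with the same sign in both mice, and up to 4 per gene list. Gene lists, members and tests were chosen with earlier results of these data known. Per the labels, libraries with the same letter share a mouse, and their deviations from group means correlated at -0.0097 to 0.0109 across regions. Alternatives were mouse as a block, other pseudocounts, no median subtraction, a −log10 q of at least 5, an equal number of peaks, a floor of 500 bp on the mean called length, other distances and numbers of libraries, and leaving out each library. Other comparison classes for length and fold were added after seeing the data. Python 3.11.15 with pandas 2.3.3, numpy 2.4.6 and matplotlib 3.10.9 was used. Regions on chromosomes X and Y were left out. A region among the named ones is not reported here.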

Additional observations from a re-analysis of the deposited data

Results flagged for a closer look

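The effect of PAM3 differed between cells with and without 25HC at 314 distal regions by the test of the difference itself (limma adjusted p under 0.05). The 10 largest in each direction are given here as the difference in log2 effect, 25HC cells minus cells without 25HC. Those with a more positive effect after 25HC lay nearest to Tshz1 (3.43), Ercc6l2 (3.42), Dab2 (3.26), Tex35 (3.19), Klf6 (3.08), Pik3ap1 (3.03), Noct (2.91), Eri1 (2.85), Snx13 (2.83) and Abca1 (2.80). Those with a more negative effect lay nearest to Dhrs4 (-4.18), Prlr (-3.89), Zfp516 (-3.71), Cibar1 (-3.65), Filip1 (-3.14), Prex1 (-3.02), Gsdmc (-3.00), Zdhhc13 (-2.89), Hhip (-2.81) and Jak1 (-2.81). With mouse as a block, none of the 20 kept its call. The adjusted p-values ran from 0.0307 to 0.0488 without the block. Each rests on groups with 0 called bp, so the sizes depend on the added 500 bp.

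At the region nearest to Dhrs4, chr14:55385781-55387686, 0 bp were called after 25HC then PAM3, 1578 and 1858 bp after PAM3, 1483 and 1431 bp after 25HC and 0 bp in untreated cells. It was thus called with either agent alone. The Abca1 region at chr4:53231869-53232812 showed the reverse, with 878 and 838 bp after 25HC then PAM3, 0 bp after PAM3, 0 bp after 25HC and 851 and 829 bp in untreated cells.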

How the results depend on the processing

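The mouse block comes from the labels, which give each group a library of mouse A and of mouse B. With mouse as a replicate block, 699 distal regions were called for PAM3 against untreated, 1293 for 25HC then PAM3 against 25HC, 0 for 25HC against untreated, 566 for 25HC then PAM3 against PAM3, 1988 for the average PAM3 effect and 0 for the difference in response, against 1146, 1786, 6, 922, 2546 and 314 without it. With peaks of a −log10 q of at least 5 all 6 counts were 0 among 8397 distal regions (limma), with 1217, 1290, 788, 993, 1839 and 1150 under an unadjusted p of 0.05. With a floor of 500 bp on the mean called length they were 683, 962, 11, 281, 1400 and 97. For 25HC against untreated, a pseudocount of 200 bp gave 88 and no median subtraction gave 76. For the difference in response, pseudocounts of 200 and 1000 bp gave 557 and 97, no median subtraction gave 512 (374 higher, 138 lower) and the same number of peaks gave 10. Leaving out each library in turn gave 453 to 1342 for PAM3 against untreated, 810 to 2086 for 25HC then PAM3 against 25HC, 0 to 52 for 25HC against untreated, 603 to 1069 for 25HC then PAM3 against PAM3, 1727 to 2582 for the average PAM3 effect and 0 to 572 for the difference in response. A distance of 50 kb left 5978 distal regions. Distal regions were longer by 20.8 bp against regions inside genes and by 40.8 bp against those 1 to 20 kb from a gene. The median fold differed by -0.0381 against regions near gene ends and by 0.0385 with a −log10 q of at least 5. Under that limit named regions changed sign, to -0.03 nearest to Ptger4 (25HC then PAM3 against 25HC), to -0.04 at Ero1b, -0.56 and -0.04 at Klf6 and -1.09 at Zeb2 (25HC then PAM3 against PAM3; the Zeb2 region gave -0.07 with the same number of peaks) and, in the average PAM3 effect, -0.77 at Csf2, -1.01 at Nos2, -0.21 at Atf3, -0.36 at Hif1a, -1.03 at Klf6, 1.37 at Klf4, -0.50 at Prdm1, -0.46 at Runx1, 0.00 at Maf, 0.75 at Tlr2, -0.06 at Msr1 and 0.46 at Abca1, and the cause was not tested. Of 210 list regions called in the average PAM3 effect, 92 kept their call in all other alternatives and 55 lost it with the block. Of 69 list regions called in 25HC then PAM3 against PAM3, 25 kept theirs in all alternatives other than that limit. Depth was unknown, and each group had 2 libraries, so small changes were not detectable.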

Other observations

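The authors' −log10 q values held single peaks far above the rest. At chr2:173349326-173350683, 72594 bp from Pmepa1, it reached 19049 in PAM3 mouse A and 32.8 or less where other libraries had a peak. At chr2:170183615-170186471, near Zfp217, it reached 16790 in 25HC then PAM3 mouse B and 11.1 or less in the other libraries. Near Plau, at chr14:20872605-20874308, it was 332 and 728 after 25HC then PAM3, 675 and 4192 after PAM3, 2934 and 196 after 25HC and 5.89 and 4.01 in untreated cells. A region near Rab10, at chr12:3109866-3110156, had 2300 to 3345 in all 8 libraries over 281 to 290 bp. The tests above use called length and do not read this height.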
